A study of Mus musculus with 6 samples.

Results

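The 43 genes described here act in G2 phase and mitosis and encode cyclins A and B, Cdk1 and its activating phosphatases, mitotic kinases, the spindle checkpoint, the chromosomal passenger complex, mitotic kinesins, and proteins of the kinetochore, the spindle and the dividing cell's midzone. A gene belonged to the set when its name was on the list and the name was carried by a non-control spot of the 6 scanner files, a rule that used no measured value. It gave 43 of 34844 gene names, read by 62 of 55681 probes at 71 of 59305 spots. The study asked how a small-molecule inhibitor of the deubiquitinase USP7 (USP7i) altered the response of murine bone marrow–derived macrophages to bacterial lipopolysaccharide (LPS). By the labels, marrow came from wild type female mice of the strain C57/B6 aged 6 to 8 weeks (the study's methods name an older age range), and the cells were differentiated for 7 days in medium conditioned by L929 cells. The methods add that macrophages were then moved to medium lacking this supplement and left overnight before an experiment. The 3 groups, each with 2 arrays from independent experiments, were untreated cells, cells treated with LPS for 4 h, and cells treated with 10 µM inhibitor for 30 min before the same 4 h of LPS (LPS+USP7i). The LPS concentration is 100 ng/ml in the series text and 100 ng/µl in the treatment label, no group received the inhibitor without LPS, and the labels do not state whether untreated and LPS-treated cells received the inhibitor's solvent.

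Cdk1 bound to cyclin B drives entry into mitosis, and the spindle checkpoint holds the anaphase-promoting complex (APC/C) back until the chromosomes are attached, after which Cdc20 directs the complex to cyclin B. Most genes of this kind are transcribed in late S and G2 phase with the help of B-Myb, FoxM1 and the CCAAT-binding factor NF-Y, and in resting cells the DREAM complex of MuvB proteins, p130 and E2F4 represses them. Bone marrow–derived macrophages divide in response to colony-stimulating factor, which L929 cells secrete, and LPS is known to halt this proliferation.

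Signal was well above local background, as called by the scanner software, at 27467 and 27126 of the 59305 spots on the untreated arrays, at 25223 and 25002 on the LPS arrays and at 26415 and 25290 on the LPS+USP7i arrays (replicate 1 first here and throughout). By the same call 41 of the 43 genes were detected on each untreated array, 40 on each LPS array, and 38 and 39 on the LPS+USP7i arrays. Aurkb and Cenpf were not detected on any array, and 38 of the 43 were detected on all 6. The cell label was checked against 9 macrophage markers (Emr1, Csf1r, Cd68, Itgam, Lyz2, Fcgr1, Mertk, Cd14 and Mrc1; Spi1 was not found under that name), and 9 of 9 were well above background on all 6 arrays. Values below are log2 signal after quantile normalization of the 6 arrays, of several probes for a gene the brightest on average was used, and differences are on the log2 scale with the standard error (SE) of the limma fit, n = 2 arrays per group. "Called" means an adjusted p under 0.05 in limma, adjusted over the 55680 probes tested.

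LPS-treated cells had less signal than untreated cells for most of the set. The median difference of the 43 genes, LPS minus untreated, was −0.96, where it was 0.0016 over all gene names and −0.18 over the 15620 names detected on all 6 arrays. The mean was lower with LPS for 39 of the 43 (background 49.3% of all gene names), and both LPS arrays lay below both untreated arrays for 30 (29.9% of all names). Among the 38 members detected on all arrays this number was 26, beside 49.5% of all names detected there. In limma 6 of the 43 fell, Aurka, Bub1b, Cdc20, Cdc25b, Incenp and Kif23 (12.8% of all gene names were called lower), and those 6 were also the called ones among the 38 (23.9%), a share that does not exceed the background of detected names. At an unadjusted p under 0.05 limma gave 20 lower (20.6% of all gene names, detected or not), 18 of them among the 38. It called 0 of the 43 higher (7.98%), with 0 higher at an unadjusted p under 0.05. Same-numbered replicates deviated together, and with replicate number as a block in the limma fit 22 of the 43 fell (13.5%), 21 of them among the 38 (25.7%).

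With the inhibitor added the set lay lower again, although without the block no member passed the test. The median of LPS+USP7i minus LPS was −0.79, where it was 0.00078 over all gene names and 0.055 over those detected on all arrays. The median of the 43 was −0.35 without LPS+USP7i replicate 1, −1.22 without LPS+USP7i replicate 2 and −0.44 without LPS replicate 2. Each of these fits set a single replicate against the mean of both, and replicate 2 was mostly above replicate 1. Within replicate 1 and replicate 2 the medians were −0.82 and −0.71. The mean was lower for 38 of the 43 (49.8%), and both LPS+USP7i arrays lay below both LPS arrays for 26 (25.3%), 24 of them among the 38 (29.6%). For Cdc25b, Incenp and Kif23 both LPS+USP7i arrays lay above both LPS arrays (26.8%). In limma 0 of the 43 were called lower (4.28%), which also holds for the 38 (7.44%), and 0 were called higher (5.51%). At an unadjusted p under 0.05 limma gave 12 lower (11.7% of all gene names, detected or not) and 0 higher. With replicate number as a block 10 fell (3.23% of all names, and 5.42% of those detected on all arrays, to which the 10 belong): Ccnb1, Ccnb2, Cenpe, Kif2c, Mad2l1, Mki67, Nusap1, Plk1, Racgap1 and Ube2c. In a limma fit of the LPS and LPS+USP7i arrays alone, and in fits without either untreated array, 0 of all probes were called in this comparison, and 8 of the 43 were lower at an unadjusted p under 0.05. Of 10 myeloid progenitor markers 8 also had a lower mean in this step, with a median of −1.07 over the 10. Ctsg, Gfi1 and Mpo were called lower with the block, and Elane, with the brightest probe of the list, was called higher with it. Of the 4 detected on all arrays 2 had a lower mean (values are given with the other cell markers). The part of these markers in the members' difference was not tested.

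Across both treatments together, LPS+USP7i minus untreated, the median difference was −1.83. The mean was lower for 43 of 43 (50.6%), and both LPS+USP7i arrays lay below both untreated arrays for 43 of 43 (29.4%), the 38 included (42.4%). In limma 15 of the 43 fell (8.72%), 14 of them among the 38 (16.3%), namely Aurka, Birc5, Bub1b, Ccnb1, Cdc20, Cdc25b, Cdca8, Cenpa, Incenp, Kif11, Kif22, Kif23, Kif2c, Plk1 and Ttk. Limma gave 36 lower at an unadjusted p under 0.05 (16.6% of all gene names, detected or not). It called 0 higher (6.15%), with 0 higher at an unadjusted p under 0.05. With replicate number as a block 33 fell (9.43%), 31 of them among the 38 (17.7%), but 4 of the 15 no longer passed, Aurka, Cenpa, Kif23 and Ttk (adjusted p with the block 0.0651, 0.0547, 0.0565 and 0.0819).

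The LPS arrays enter both the first and the second comparison, so the values of these comparisons are linked. Medians within replicate 1 and replicate 2 were −0.96 and −0.97 for LPS minus untreated, −0.82 and −0.71 for LPS+USP7i minus LPS, and −1.81 and −1.77 for LPS+USP7i minus untreated. Bulk RNA cannot tell fewer dividing cells from less mitotic RNA in each cell. Scaling each array to its 75th percentile, in place of quantile normalization, moved the median over all probes to 0.51 for LPS minus untreated and to 0.55 for LPS+USP7i minus untreated, and the 43 genes then had medians of −0.85 and −1.72. The counts rest on few arrays. The count of 6 lower with LPS in limma was 1 without untreated replicate 2 and 2 without LPS replicate 1. The count of 15 lower with LPS+USP7i than in untreated cells was 4 without untreated replicate 1, 1 without untreated replicate 2, 5 without either LPS array, 1 without LPS+USP7i replicate 1 and 2 without LPS+USP7i replicate 2.

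**Figure D1:**
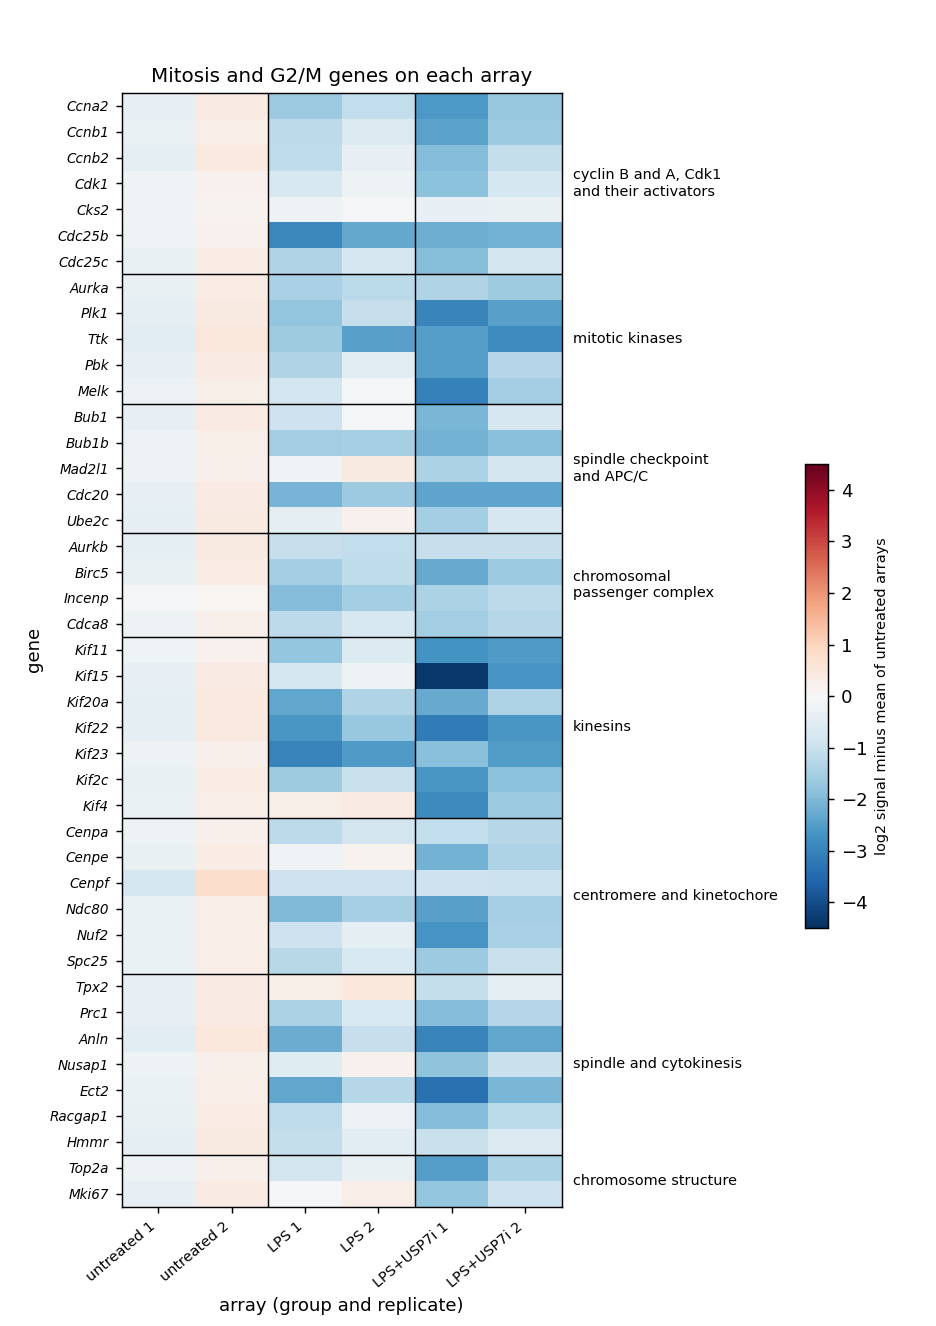
Log2 signal of the 43 genes (rows, grouped by role) on the 6 arrays (columns), as the difference from the mean of the untreated arrays. The LPS+USP7i columns are below 0 for all 43 genes in both replicates, while 39 genes have a mean below 0 with LPS (37 with each array scaled to its 75th percentile).

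The promoters of these genes were searched because most of the genes lay lower together. RefSeq windows on GRCm38.p6, from 250 bases before to 50 bases after the transcription start, were found for 36 of the 43 genes, and not for Ccna2, Cdc25c, Pbk, Aurkb, Incenp, Kif20a and Tpx2 (Prc1 and Ect2 had 2 windows each, of which the first listed was used). They were searched on both strands for CCAAT, which reads as ATTGG from the opposite strand and is bound by NF-Y, and for the letters of the cell cycle genes homology region, which MuvB complexes bind. These are TTTGAA, which reads as TTCAAA from the opposite strand, and TTTAAA, a palindrome. CCAAT occurred in 27 of the 36 windows (75%), beside 37.9% of the windows of 27025 gene symbols searched in the same way, and at 2 or more places in 19 (52.8%, beside 12.2%). TTTGAA occurred in 26 (72.2%, beside 18.1%) and TTTAAA in 9 (25%, beside 13.2%). A window held CCAAT together with TTTGAA or TTTAAA in 24 of the 36 (66.7%, beside 10.9%). Counting only the last 80 bases, a stretch chosen after the positions were seen, TTTGAA or TTTAAA occurred in 25 (69.4%, beside 6.22%). Windows of Melk, Mad2l1, Nuf2 and Nusap1 held none of the 3 motifs (4 of 36, 11.1%, beside 45.2%). These matches describe letters in a window and were not tested as binding sites.

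The 6 windows printed here come from members of several roles, some of them shared. Ccnb1 and Cdk1 encode the kinase of mitotic entry, and Cdc20 and Kif23 fell with LPS. Ube2c and Top2a had their larger difference between LPS+USP7i and LPS. Sequences are from RefSeq, build GRCm38.p6, in the direction of transcription, with the matches to these 3 motifs on either strand in capitals. Ccnb1 is at chr13:100786437-100786736 (minus strand), Cdk1 at chr10:69352863-69353162 (minus), Cdc20 at chr4:118437294-118437593 (minus), Kif23 at chr9:61946750-61947049 (minus), Ube2c at chr2:164769679-164769978 (plus) and Top2a at chr11:99024140-99024439 (minus). In Ube2c a CCAAT and an ATTGG share letters and print as 1 run of capitals (in Cdca8, not printed, TTTGAA shares a letter with ATTGG).
Ccnb1: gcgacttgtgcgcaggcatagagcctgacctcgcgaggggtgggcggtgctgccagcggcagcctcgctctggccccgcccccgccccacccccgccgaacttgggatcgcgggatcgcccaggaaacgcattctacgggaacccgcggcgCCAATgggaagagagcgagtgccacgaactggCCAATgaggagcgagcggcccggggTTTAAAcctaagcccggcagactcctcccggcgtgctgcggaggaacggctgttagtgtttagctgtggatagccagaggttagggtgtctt
Cdk1: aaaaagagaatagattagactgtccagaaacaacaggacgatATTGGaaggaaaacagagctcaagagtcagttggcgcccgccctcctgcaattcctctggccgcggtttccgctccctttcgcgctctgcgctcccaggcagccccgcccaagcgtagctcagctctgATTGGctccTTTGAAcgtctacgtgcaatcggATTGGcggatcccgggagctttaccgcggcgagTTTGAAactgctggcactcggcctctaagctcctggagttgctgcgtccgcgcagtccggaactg
Cdc20: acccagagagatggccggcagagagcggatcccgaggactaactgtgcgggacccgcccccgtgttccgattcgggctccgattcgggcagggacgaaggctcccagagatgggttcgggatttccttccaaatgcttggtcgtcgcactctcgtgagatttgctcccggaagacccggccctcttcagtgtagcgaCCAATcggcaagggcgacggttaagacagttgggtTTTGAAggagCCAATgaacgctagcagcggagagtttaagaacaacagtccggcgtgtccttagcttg
Ube2c: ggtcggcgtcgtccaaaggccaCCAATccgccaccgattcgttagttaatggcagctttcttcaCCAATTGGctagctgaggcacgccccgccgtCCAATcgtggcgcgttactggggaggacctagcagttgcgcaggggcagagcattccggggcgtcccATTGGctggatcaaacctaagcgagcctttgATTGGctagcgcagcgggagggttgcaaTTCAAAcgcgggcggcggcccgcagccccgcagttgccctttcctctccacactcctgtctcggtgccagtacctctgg
Kif23: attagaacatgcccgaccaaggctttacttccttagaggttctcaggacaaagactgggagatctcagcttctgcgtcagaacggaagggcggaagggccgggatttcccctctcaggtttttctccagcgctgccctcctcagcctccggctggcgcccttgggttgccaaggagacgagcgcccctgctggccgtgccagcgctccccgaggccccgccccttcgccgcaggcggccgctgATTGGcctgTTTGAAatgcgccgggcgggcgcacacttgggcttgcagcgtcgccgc
Top2a: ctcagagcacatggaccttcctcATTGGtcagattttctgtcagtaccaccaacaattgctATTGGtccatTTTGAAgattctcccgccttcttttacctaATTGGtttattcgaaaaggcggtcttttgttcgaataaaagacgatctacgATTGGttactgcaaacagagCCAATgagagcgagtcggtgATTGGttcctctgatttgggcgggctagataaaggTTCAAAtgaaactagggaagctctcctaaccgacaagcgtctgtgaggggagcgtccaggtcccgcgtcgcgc

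Counted from the transcription start, the Ccnb1 window has CCAAT at −99 and −67 and TTTAAA at −42. The Cdc20 window has CCAAT at −53 and −8 with TTTGAA between them at −18. Kif23 carries ATTGG at −7 with TTTGAA 4 letters after it. Ube2c has TTCAAA at −29, and Top2a has it at −23.

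Cyclins A and B, Cdk1 and their activators form the first role group, in which Ccna2, Ccnb1 and Ccnb2 encode the cyclins, Cks2 a Cdk-binding subunit, and Cdc25b and Cdc25c the phosphatases that remove inhibitory phosphates from Cdk1. Median differences of the 7 genes were −0.92 with LPS, −0.77 between LPS+USP7i and LPS, and −1.52 between LPS+USP7i and untreated. Ccnb2 measured 11.96 and 12.84 on the untreated arrays, 11.26 and 12.03 after LPS, and 10.44 and 11.32 after LPS+USP7i. Each replicate of Ccnb2 stepped down from untreated to LPS to LPS+USP7i, but replicate 2 after each step was above replicate 1 before it, so neighbouring groups overlapped. The steps were −0.75 ± 0.52 (SE; limma adjusted p = 0.491, with the block 0.0188) and −0.77 ± 0.52 (0.541, with the block 0.0399). Cdc25b was at 11.09 and 11.48 on the untreated arrays, 8.38 and 8.98 after LPS, and 9.09 and 9.17 after LPS+USP7i. Untreated arrays were far above the other 4, and the LPS+USP7i arrays sat slightly above the LPS arrays. Cdc25b fell by 2.60 ± 0.26 with LPS, 6.07-fold (limma adjusted p = 0.00893), and was 0.45 ± 0.26 higher with LPS+USP7i than with LPS (0.464). For Ccnb1, described after its values were seen because it is the cyclin of mitotic entry, the arrays gave 10.29 and 10.88, then 9.39 and 9.93, then 8.18 and 8.89. Its groups did not overlap in any comparison, and it fell by 2.04 ± 0.38 between untreated and LPS+USP7i (limma adjusted p = 0.0452). The other 4 genes differed by −1.36 to −0.16 with LPS and by −0.84 to −0.19 with the inhibitor added, with the smallest differences in Cks2, and of the 7 genes Cdc25b alone was called in the LPS comparison without the block.

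Among the mitotic kinases, Plk1 acts on centrosomes, kinetochores and cytokinesis, Aurka on spindle poles, Ttk starts the spindle checkpoint, and Pbk and Melk are kinases most abundant in dividing cells. The 5 genes had medians of −1.33, −0.97 and −2.30 in the 3 comparisons in the order given above. Plk1 read 11.24 and 12.08 without treatment, 9.90 and 10.64 after LPS, and 8.69 and 9.21 after LPS+USP7i. Its 3 groups were separate, with untreated highest and LPS+USP7i lowest in both replicates. Plk1 fell by 2.71 ± 0.44 from untreated to LPS+USP7i, 6.56-fold (limma adjusted p = 0.0327), in steps of −1.39 with LPS (0.127, with the block 0.0169) and −1.32 with the inhibitor (0.185, with the block 0.0393). Aurka showed 10.31 and 10.96, 9.17 and 9.44, and 9.29 and 9.04 in the same order. The 4 treated arrays of Aurka lay together below both untreated arrays, and the LPS and LPS+USP7i arrays overlapped. Aurka fell by 1.33 ± 0.27 with LPS (limma adjusted p = 0.0447, with the block 0.065) and differed by −0.14 ± 0.27 between LPS+USP7i and LPS (0.853). Ttk was detected in untreated cells alone, at 4.63 and 5.63, and its 4 treated arrays, from 2.30 to 3.53, were at background. Against the lowest detected signal Ttk was at least 1.80-fold lower with LPS+USP7i than in untreated cells (limma adjusted p = 0.0421, with the block 0.0819). Most of the difference of Melk lay in the second step, with 8.41 and 8.91 untreated, 7.79 and 8.62 after LPS, and 5.61 and 7.11 after LPS+USP7i. Its LPS arrays overlapped the untreated arrays, and both LPS+USP7i arrays were below all others (−1.85 ± 0.63 against LPS, limma adjusted p = 0.195, with the block 0.0698).

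The spindle checkpoint is represented by Bub1, Bub1b and Mad2l1, which keep Cdc20 from activating the APC/C, and the APC/C itself by Cdc20 and by Ube2c, the enzyme that supplies it with ubiquitin. Their medians were −0.51, −0.91 and −1.42. Ube2c had values of 10.71 and 11.49 on the untreated arrays, 10.68 and 11.30 after LPS, and 9.56 and 10.35 after LPS+USP7i. Untreated and LPS arrays of Ube2c covered the same range, and both LPS+USP7i arrays were below it. The difference between LPS+USP7i and LPS was −1.03 ± 0.45 (limma adjusted p = 0.304, with the block 0.038). Mad2l1 behaved alike, at 10.38 and 10.83, then 10.45 and 11.01, then 9.18 and 9.78. The LPS arrays overlapped the untreated ones, and the LPS+USP7i arrays were lowest, by −1.25 ± 0.33 against LPS (limma adjusted p = 0.119, with the block 0.0362). Cdc20 differed from both, with 11.12 and 11.82 untreated, 9.36 and 9.82 after LPS, and 9.09 and 9.11 after LPS+USP7i. All 4 treated arrays were far below the untreated arrays. It fell by 1.88 ± 0.30 with LPS, 3.68-fold (limma adjusted p = 0.0255), and its difference between LPS+USP7i and LPS was −0.49 ± 0.30 (0.5). Bub1b fell by 1.54 ± 0.22 with LPS (limma adjusted p = 0.019). The 3 genes Ube2c, Mad2l1 and Cdc20 thus split within 1 complex and its inhibitor, although whether the differences between genes exceed error was not tested.

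Birc5 (survivin), Incenp and Cdca8 (borealin) form the chromosomal passenger complex with Aurkb, whose probe was at background on all 6 arrays. Medians of the 3 detected genes were −1.34, −0.48 and −1.42. Incenp measured 13.29 and 13.45 on the untreated arrays, 11.43 and 11.85 after LPS, and 11.95 and 12.19 after LPS+USP7i. Its untreated arrays were highest and close together, and both LPS+USP7i arrays were a little above both LPS arrays. Incenp fell by 1.73 ± 0.19 with LPS (limma adjusted p = 0.0105), was 0.43 ± 0.19 higher with LPS+USP7i than with LPS (0.308), and stood 1.30 below untreated at the end, a decrease that was also called (0.0254). Birc5 gave 12.59 and 13.28, 11.39 and 11.79, and 10.65 and 11.27. Here the 3 groups were separate and in steps. Birc5 fell by 1.97 ± 0.36 between untreated and LPS+USP7i (limma adjusted p = 0.0433), with −1.34 in the LPS step (0.0883, with the block 0.0165) and −0.63 in the inhibitor step (0.46). Cdca8 had −0.94 and −0.48 in the same steps.

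Kinesins move chromosomes and slide microtubules: Kif11 and Kif15 keep the spindle bipolar, Kif22 and Kif4 ride on chromosome arms, Kif2c shortens microtubules at centromeres, and Kif20a and Kif23 serve the midzone and cytokinesis. The 7 genes ranged from −2.78 to 0.32 with LPS (median −1.31) and, with Kif15 left out because it was not detected with LPS+USP7i, from −2.58 to 0.58 between LPS+USP7i and LPS (median of the 7 −0.92). Kif20a was at 10.48 and 11.37 on the untreated arrays, 8.60 and 9.59 after LPS, and 8.65 and 9.55 after LPS+USP7i. LPS and LPS+USP7i arrays of Kif20a were nearly the same in each replicate, and both groups were below untreated. The difference with LPS was −1.84 ± 0.57 (limma adjusted p = 0.122, with the block 0.0134). Kif22 read 10.63 and 11.49, 8.45 and 9.36, and 7.93 and 8.43. Untreated arrays were highest, the LPS and LPS+USP7i arrays did not overlap, and the larger step was the first. Kif22 fell by 2.88 ± 0.48 from untreated to LPS+USP7i, 7.36-fold (limma adjusted p = 0.035), with −2.15 in the LPS step (0.0562, with the block 0.0148). Kif23 showed the largest LPS difference of the 43 genes, with 8.76 and 9.22 untreated, 5.98 and 6.43 after LPS, and 7.11 and 6.47 after LPS+USP7i. Both LPS arrays were lowest. Kif23 fell by 2.78 ± 0.32 with LPS, 6.88-fold (limma adjusted p = 0.0122), and was 0.58 ± 0.32 higher with LPS+USP7i than with LPS (0.442). Its decrease of 2.20 from untreated to LPS+USP7i was called without the block alone (limma adjusted p = 0.0265, with the block 0.0565).

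In Kif4 and Kif15 the larger difference was in the second step, and Kif4 alone of the kinesins had a higher mean with LPS than without. Kif4 had 6.90 and 7.52 on the untreated arrays, 7.47 and 7.59 after LPS, and 4.35 and 5.55 after LPS+USP7i. The LPS arrays were at the upper end of the untreated range, and both LPS+USP7i arrays were far below (−2.58 ± 0.48 against LPS, limma adjusted p = 0.0582, with the block 0.0518). Kif15 measured 6.04 and 6.75, then 5.59 and 6.16, and was not detected with LPS+USP7i (2.05 and 3.75). Against the lowest detected signal that is at least 3.02-fold lower than with LPS (limma adjusted p = 0.0869, with the block 0.0503). Both genes missed the threshold in this step, without and with the block. They were called in it with normexp background correction, on the deposited log2 values and with dim probes left out. Between LPS+USP7i and untreated both were called with the block alone (limma adjusted p with the block 0.0434 for Kif4 and 0.0286 for Kif15).

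**Figure D2:**
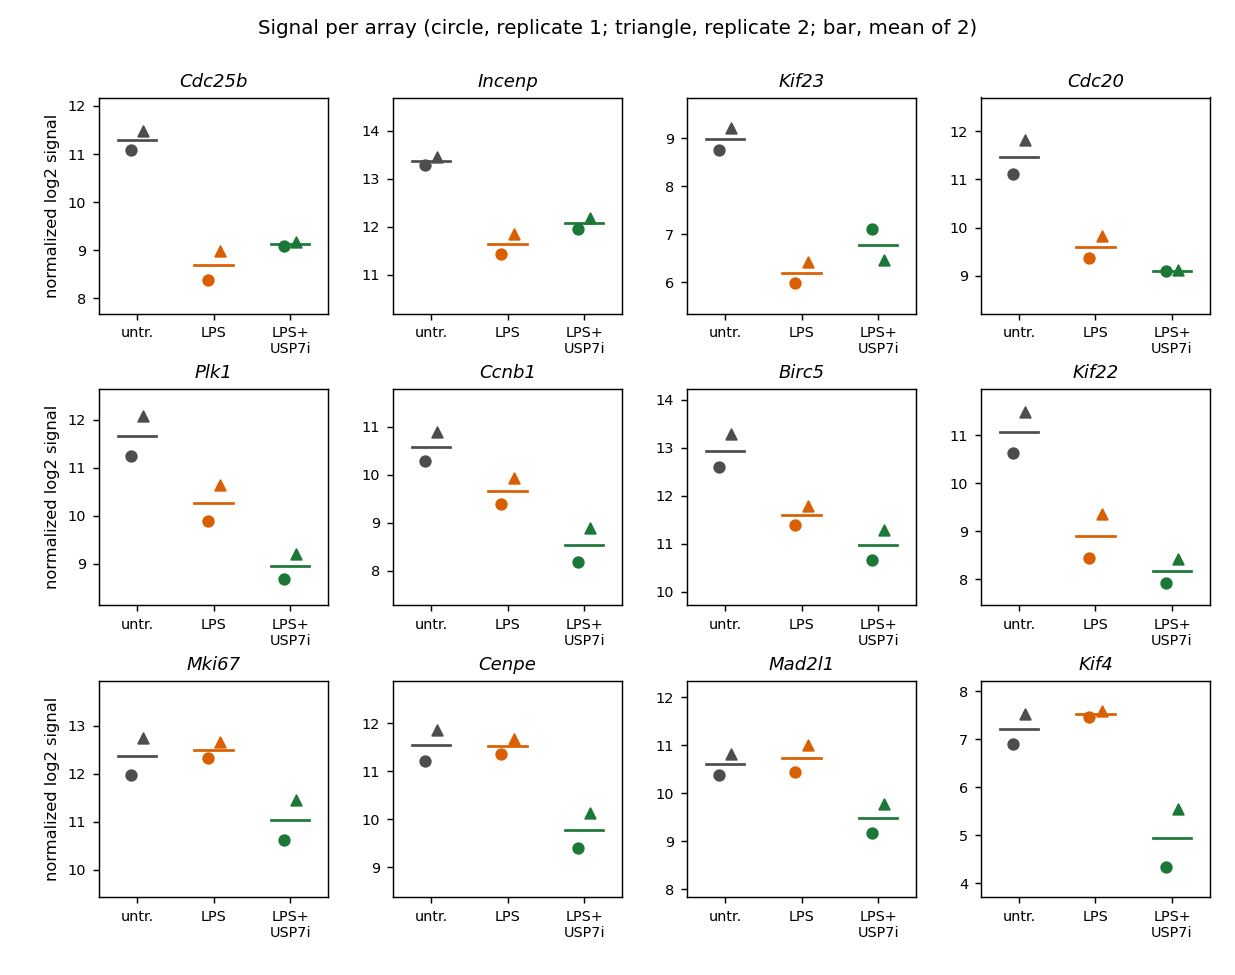
Normalized log2 signal of 12 of the genes on each array (y axis, the same span in each panel), by group (x axis), with bars at the mean of 2 arrays. Cdc25b, Incenp and Kif23 were lowest with LPS, Plk1, Ccnb1 and Birc5 stepped down in both treatments, and Mki67, Cenpe, Mad2l1 and Kif4 were lowest with LPS+USP7i, with LPS arrays that overlapped the untreated arrays.

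At the centromere Cenpa is the histone that marks it, Ndc80, Nuf2 and Spc25 are subunits of the complex that holds microtubules, Cenpe is the kinetochore motor, and Cenpf, which was at background, is a fibrous-corona protein. The medians of the 5 detected genes were −0.96, −0.37 and −1.77. Spc25 had 12.05 and 12.63 on the untreated arrays, 11.10 and 11.66 after LPS, and 10.70 and 11.32 after LPS+USP7i. Both treated groups were below untreated and overlapped each other. Its LPS difference was −0.96 ± 0.36 (limma adjusted p = 0.188, with the block 0.0144). Cenpe gave 11.22 and 11.86, 11.37 and 11.68, and 9.41 and 10.14. The LPS arrays of Cenpe fell inside the untreated range, and both LPS+USP7i arrays were more than 1 log2 unit below them. Between LPS+USP7i and LPS the difference was −1.75 ± 0.36 (limma adjusted p = 0.0724, with the block 0.0383), while the LPS difference of −0.016 changed sign with the processing. Of the remaining 4, Cenpa fell by 1.19 from untreated to LPS+USP7i (limma adjusted p = 0.0423, with the block 0.0547).

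Spindle assembly and cytokinesis genes were Tpx2, which activates Aurora A at the spindle, Nusap1 and Hmmr, which bind spindle microtubules, Prc1, which bundles midzone microtubules, and Racgap1, Ect2 and Anln, which place and build the contractile ring. Medians were −0.80, −0.91 and −1.58. Prc1 was at 11.10 and 11.86 on the untreated arrays, 10.06 and 10.81 after LPS, and 9.54 and 10.15 after LPS+USP7i. Untreated arrays were highest and the treated groups overlapped. The differences were −1.05 ± 0.43 with LPS (limma adjusted p = 0.229, with the block 0.0154) and −0.59 ± 0.43 with the inhibitor added (0.559). Racgap1 read 10.41 and 11.10, 9.63 and 10.48, and 8.81 and 9.54. Each replicate stepped down, and its LPS+USP7i arrays were below both LPS arrays. The inhibitor step was −0.88 ± 0.46 (limma adjusted p = 0.414, with the block 0.0396). Tpx2 went against the group with 9.63 and 10.34 untreated, 10.26 and 10.46 after LPS, and 8.90 and 9.58 after LPS+USP7i. Its LPS arrays overlapped the untreated arrays, and the LPS+USP7i arrays were lowest. Anln and Ect2 had the largest decreases here, with unadjusted p under 0.05 between LPS+USP7i and untreated in limma. The limma adjusted p was 0.0646 and 0.073 there, and with the block 0.0201 and 0.0219. For LPS minus untreated it was 0.165 and 0.155, and with the block 0.022 and 0.0262. Without the block 0 of the 7 were called in any comparison.

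Top2a, the topoisomerase that untangles chromosomes, and Mki67, which coats them and is the usual marker of cycling cells, had −0.59 and 0.13 with LPS. Mki67 measured 11.98 and 12.74 on the untreated arrays, 12.33 and 12.67 after LPS, and 10.62 and 11.45 after LPS+USP7i. Its LPS arrays lay within the untreated range, and both LPS+USP7i arrays were below all 4 others, by −1.46 ± 0.42 against LPS (limma adjusted p = 0.136, with the block 0.0464). Top2a had 9.72 and 10.18, 9.11 and 9.62, and 7.46 and 8.51. Its groups did not overlap, and the second step, −1.37 ± 0.44 (limma adjusted p = 0.175, with the block 0.0597), was the larger. A second Mki67 probe gave 0.0075 with LPS and overlapped in the same way. Between LPS+USP7i and LPS this probe gave −1.22 and was not called (limma adjusted p = 0.177, with the block 0.0873).

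**Figure D3:**
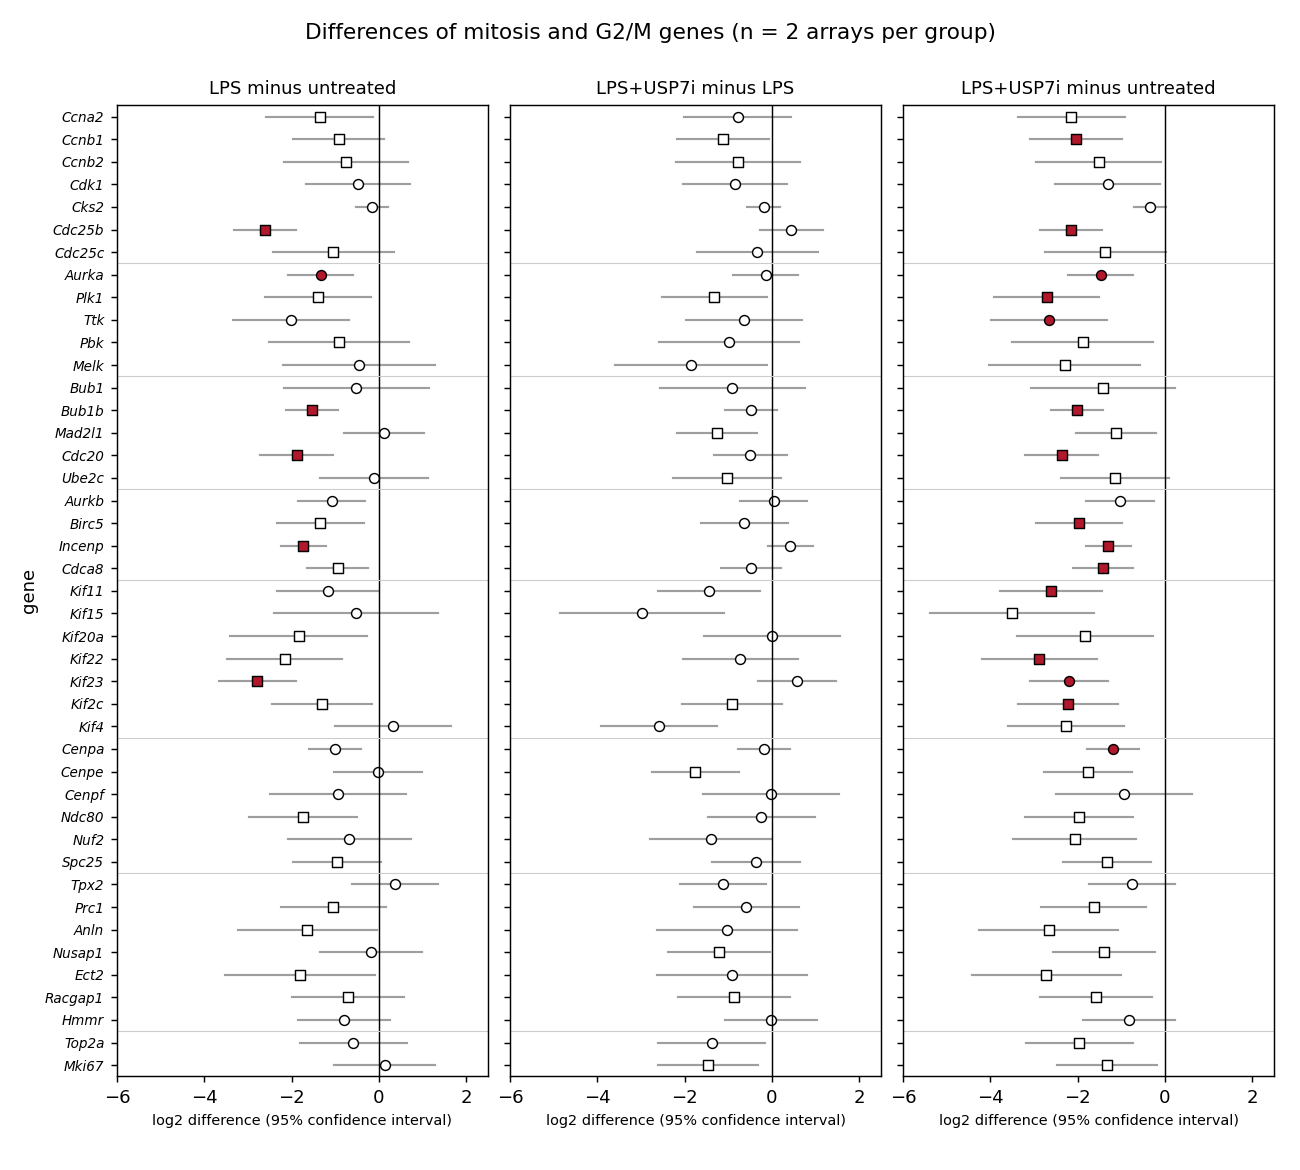
Log2 difference (x axis) of each gene (rows) in the 3 comparisons, with 95% confidence intervals from limma and n = 2 arrays per group. Filled symbols mark adjusted p under 0.05 (6, 0 and 15 genes), squares mark the same with replicate number as a block (22, 10 and 33), and the sign of the LPS difference changed with the processing or with an array left out for 8 genes and of the LPS+USP7i minus LPS difference for 6.

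By their means, members differed in where their decrease lay, although whether these differences between genes exceed error was not tested. Kif20a, Cdc25b, Incenp, Kif23, Aurka and Cenpa had LPS differences of −2.78 to −1.01 and differences between LPS+USP7i and LPS of −0.18 to 0.58. Mki67, Cenpe, Kif4, Tpx2, Mad2l1, Ube2c and Nusap1 had LPS differences of −0.18 to 0.37 and differences between LPS+USP7i and LPS of −2.58 to −1.03. In the second set the sign of the LPS difference changed with the processing for Cenpe, Ube2c and Tpx2 and with an array left out for Mad2l1, Mki67 and Nusap1, and in the first set Kif20a changed sign between LPS+USP7i and LPS. Both sets were picked after their values were seen, and the LPS arrays stand in both differences with opposite sign, so the 2 differences of a gene are not independent. Plk1, Ccnb1, Kif11 and Kif2c had differences of −1.45 to −0.92 in both steps. By role, and among the 38 members detected on all arrays, LPS arrays lay wholly below untreated arrays for 3 of 3 passenger complex genes, 4 of 5 kinetochore genes, 5 of 6 kinesins, 4 of 6 cyclin and Cdk1 genes, 3 of 4 kinases, 4 of 7 spindle genes, 2 of 5 checkpoint and APC/C genes and 1 of 2 chromosome structure genes, beside 49.5% of all names detected on all arrays.

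Several probes read 14 of the 43 genes. The 2 Incenp probes gave −1.73 and −1.68 with LPS, and the 3 Mad2l1 probes gave LPS+USP7i arrays below both LPS arrays. Other probes of Ccnb1, Birc5, Cdca8 and Kif2c also fell between untreated and LPS+USP7i. They passed with the block alone (limma adjusted p without it 0.0585 to 0.117). Between LPS+USP7i and LPS, other probes of Ccnb1, Kif2c and Mki67 and a Mad2l1 probe missed the threshold with the block (limma adjusted p 0.0841 to 0.112). With LPS and the block, other Ccnb1 and Kif2c probes missed it too (0.052 to 0.151). The other probes of Nuf2, Tpx2, Ect2, Cdk1 and Kif23 were near background. The second Kif23 probe was not detected on any array and gave 0.16, −0.14 and 0.03 in the 3 comparisons, so the Kif23 values above rest on 1 probe.

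Replicates of these genes differed mostly in the same direction. Replicate 2 was above replicate 1 for 43 of the 43 genes in untreated cells (57.7% of all gene names), 40 with LPS (49.6%) and 38 with LPS+USP7i (53.6%). The median difference between replicates was 0.66, 0.53 and 0.68 in the 3 groups. Aurka with LPS+USP7i, 9.29 and 9.04, and Kif23 with LPS+USP7i are among the exceptions. Summed over the 43 genes, normalized signal was 64206 and 97983 on the untreated arrays, 34984 and 50172 after LPS, and 21511 and 31144 after LPS+USP7i. Its order by treatment was the same in both replicates, and replicate 2 of LPS lay below replicate 1 of untreated.

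Markers of other cells differed between replicates and, for some lists, between treatments. Of 8 neutrophil markers 6 were higher in replicate 2 in each group, with median differences of 0.98, 1.45 and 1.15; S100a9 measured 7.68 and 10.72 on the untreated arrays, 9.54 and 12.38 after LPS, and 8.35 and 11.57 after LPS+USP7i. The summed signal of the list was 33098 and 31022, 20516 and 27358, and 37998 and 29633. Its brightest probe was that of Csf3r, and 6 of the 8 were detected on all arrays. The medians of the list were 0.70 with LPS, −0.38 between LPS+USP7i and LPS, and 0.29 between LPS+USP7i and untreated. In limma 0 of the 8 were called in any comparison, and with the block Camp and S100a9 were called higher with LPS (limma adjusted p = 0.0214 and 0.0154) and Camp lower with LPS+USP7i than with LPS (0.0499). Of 10 myeloid progenitor markers Elane had the brightest probe, and Flt3, Ms4a3 and Myb were at background on all arrays. Mpo was higher in replicate 1 (8.39 and 6.45, 8.65 and 6.67, 6.49 and 4.84), and the list summed to 3924 and 4108, 5130 and 4694, and 3972 and 4296. Only Kit, Cd34, Mpo and Elane of these 10 were detected on all arrays, of which Kit (−0.017) and Mpo had a lower mean with LPS+USP7i than with LPS, and Cd34 (0.077) and Elane (0.62) a higher one. Both LPS+USP7i arrays lay below both LPS arrays for 7 of the 10, among them the 3 at background, and above for Elane. The medians of the 10 were 0.26 with LPS, −1.07 between LPS+USP7i and LPS, and −0.93 between LPS+USP7i and untreated. Gfi1 was detected after LPS alone and was called higher with LPS in limma (at least 114-fold, limma adjusted p = 0.00664), and with the block Elane and Kit were called lower with LPS (0.0463 and 0.0134). Between LPS+USP7i and LPS, Gfi1 was called lower (at least 87.9-fold, limma adjusted p = 0.0192), and with the block Ctsg and Mpo were too (0.0387 and 0.0362), while Elane was called higher with the block (0.0466). Of 10 lymphocyte markers, with Cd4 the brightest and Cd3g and Cd8a at background, replicate 2 was higher for 1, 4 and 3. The list summed to 3235 and 2659, 3469 and 2447, and 3063 and 2064. In limma 0 of the 10 were called, and with the block Cd79b was lower with LPS+USP7i than in untreated cells. Of 8 fibroblast markers 0 were detected on all arrays and 4 on some, with Col1a1, Col3a1, Pdgfra and Lum at background throughout. The list, with Pdgfrb the brightest, summed to 97.0 and 104, 621 and 567, and 116 and 111. Pdgfrb was at 2.86 and 4.34, 8.89 and 8.89, and 3.02 and 5.22, with untreated replicate 1 and LPS+USP7i replicate 1 at background, and was called higher with LPS (limma adjusted p = 0.0321). Macrophage markers summed to 735393 and 729021, 727387 and 754080, and 632181 and 593711. In limma Itgam was called lower and Cd14 higher with LPS, and Cd14 and Fcgr1 were called lower with LPS+USP7i than with LPS, Fcgr1 also than in untreated cells. The part of other cells in the members' differences between replicates and treatments was not tested.

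**Figure D4:**
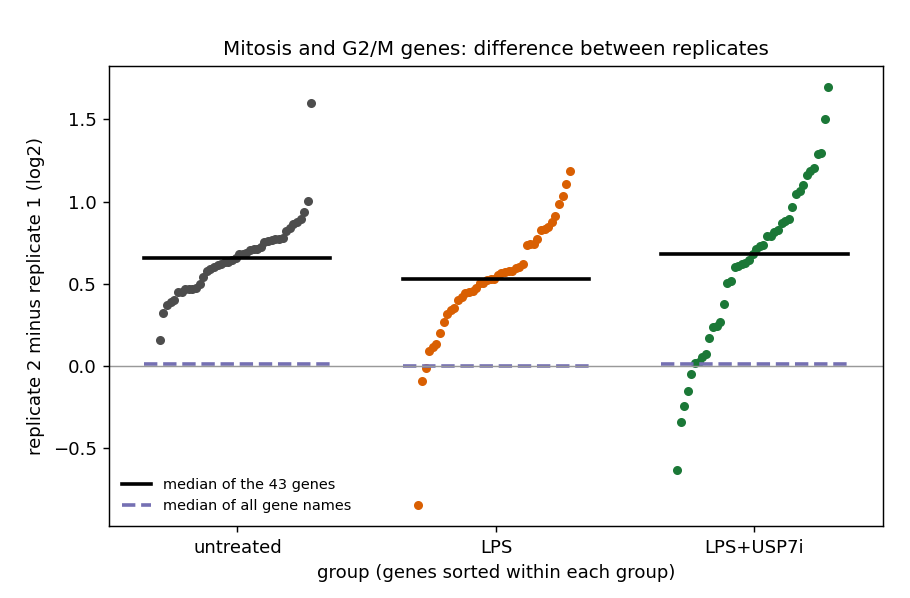
Replicate 2 minus replicate 1 (log2, y axis) of the 43 genes in each group (x axis, genes sorted), with the median of the 43 genes (solid line; 0.66, 0.53 and 0.68) and of all gene names (dashed line; 0.012, −0.00088 and 0.015).

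Other mitosis genes, a list of 69 found on the array and outside the 43 (Ska2, Ska3 and Parpbp were not found under those names), had medians of −0.96 with LPS, −0.48 between LPS+USP7i and LPS, and −1.42 between LPS+USP7i and untreated. In limma 15 fell and 2 rose with LPS, 6 fell and 2 rose with LPS+USP7i against LPS, and 20 fell and 2 rose against untreated, and with the block 34, 11 and 45 fell. Of the 54 detected on all arrays 10, 5 and 14 fell without the block, beside 23.9%, 7.44% and 16.3% of all names detected there, so that the count with LPS does not exceed the background, and 28, 10 and 35 fell with it (25.7%, 5.42% and 17.7%). Fbxo5, the APC/C inhibitor Emi1, had 10.00 and 10.44 on the untreated arrays, 6.71 and 6.67 after LPS, and 7.29 and 7.07 after LPS+USP7i. It fell by 3.53 with LPS (limma adjusted p = 0.00345), and all 4 treated arrays were far below untreated. Esco2, which acetylates cohesin, was detected in untreated cells alone (6.33 and 6.82) and was at least 4.26-fold lower with LPS (limma adjusted p = 0.00303). Depdc1b was at least 10.5-fold lower with LPS (limma adjusted p = 0.0469). With LPS+USP7i against LPS, Ckap2l fell by 2.55 (limma adjusted p = 0.0443) and Trip13, which disassembles the Mad2 checkpoint complex, fell by 2.38 (0.0423). Zwint, a kinetochore linker, rose by 2.15 (limma adjusted p = 0.0123), with 12.51 and 12.34 on the LPS arrays and 14.62 and 14.53 on the LPS+USP7i arrays. Between untreated and LPS+USP7i, Fam64a fell by 3.49 (limma adjusted p = 0.0211) and Aspm fell by 3.05 (0.0421).

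Transcription regulators of G2/M genes (23, 23 of them detected on all arrays) had medians of −0.42, −0.16 and −0.20. With LPS 6 fell and 2 rose, with LPS+USP7i against LPS 3 fell and 3 rose, and against untreated 6 fell and 1 rose in limma (with the block 7 and 4, 2 and 4, and 8 and 3). Of all names detected on all arrays 23.9%, 7.44% and 16.3% fell without the block, so that 6 of 23 with LPS is near the background, and of all gene names 7.98%, 5.51% and 6.15% rose. Foxm1, the activator of late cell cycle genes, had 8.17 and 8.71 on the untreated arrays, 7.07 and 7.83 after LPS, and 6.56 and 7.01 after LPS+USP7i. Like Plk1 and Birc5 its 3 groups were separate and in steps, −0.99 and −0.66 (limma adjusted p = 0.184 and 0.445, with the block 0.0251 and 0.0723). Mybl2 (B-Myb) gave 9.45 and 9.89, 8.58 and 8.96, and 8.55 and 8.67, with the treated groups overlapping below untreated (−0.90 with LPS, limma adjusted p = 0.0685, with the block 0.0296). E2f2, an activating E2F, fell by 4.61 with LPS (limma adjusted p = 0.00321) and rose by 1.68 with LPS+USP7i against LPS (0.0294, with the block 0.0616). E2f6, a repressor, fell by 1.58 with LPS (limma adjusted p = 0.00882) and rose by 1.59 with LPS+USP7i against LPS (0.0196). E2f1 fell by 0.95 with LPS (limma adjusted p = 0.0181), and E2f5 rose by 1.31 (0.0332). Rbl1 (p107) fell by 2.39 (limma adjusted p = 0.0265) and E2f8 fell by 2.06 (0.0159) with LPS+USP7i against LPS, and Rbl2 (p130) fell by 1.33 against untreated (0.0103). E2f7 differed by 0.81 with LPS and by −0.06 with LPS+USP7i against LPS (limma adjusted p = 0.126 and 0.963).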

How the data were processed

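RNA from 6 cultures was read on single-colour Agilent arrays, 1 per culture. Per the file headers, each scanner file holds spot intensity from Feature Extraction 10.7.3.1 after local background and spatial trend were removed, with no normalization between arrays. The authors also deposited log2 values that they had quantile-normalized in limma, with medians of 5.07 to 5.10 per array. The intensities were taken to log2, quantile-normalized over the 59305 non-control spots, set to missing where the software marked a spot as an outlier, averaged per probe, and fitted in limma 3.58.1 (R 4.3.3) as 3 groups with residual df 3 and prior df 1.05. P values were adjusted by Benjamini-Hochberg over the 55680 probes tested, and the fit was tested on simulated data. Replicate numbers are shared between groups, and the series text calls the replicates independent experiments. Deviations of same-numbered arrays from their group means correlated at 0.112, 0.108 and 0.141 over all probes for the 3 pairs of groups, and at 0.468, 0.398 and 0.422 over the 20721 detected on all arrays, so the numbers were taken as pairs and values from a fit with the number as a block (residual df 2, prior df 1.07) are printed beside the main ones. All arrays were on 1 slide, where slide row and treatment cannot be told apart, nor slide column and replicate number. Values on every array are given for the 2 members of each role with the highest mean signal and for the 3 largest falls and rises past the threshold in each comparison, and members that go against their role may be named. For the lists of other genes the 3 largest changes past the threshold in each comparison are named, with Foxm1, Mybl2, E2f1, E2f7, E2f8, Ccnd1, Cdkn1a, Cdkn1b and Myc. A gene not detected on either array of a group is given as a bound against the lowest detected signal. The members, the lists and the tests were chosen with earlier results of these data known. The number of arrays limits the precision. Of the lists of cell type markers in the design, 1 is not reported here.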

Additional observations from a re-analysis of the deposited data

How the results depend on the processing

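The 43 genes had a negative median in all 3 comparisons under 8 alternatives and in 6 fits that each dropped 1 array. Genes lower in LPS minus untreated, LPS+USP7i minus LPS and LPS+USP7i minus untreated numbered 6, 0 and 15; they were 11, 1 and 25 with 75th percentile scaling, 17, 5 and 34 with normexp background correction, 9, 3 and 24 on the deposited log2 values, 18, 6 and 34 of 41 with dim probes left out, 4, 0 and 5 with only the groups compared, 22, 10 and 33 with the replicate block, 8, 1 and 16 with the mean over all probes of a gene, and 6, 0 and 15 with outlier spots kept. With 1 array left out, which assumes that the lone array varies like the other groups, they ranged from 1 to 6, 0 to 2 and 1 to 5, and the medians from −1.30 to −0.67, −1.22 to −0.35 and −2.19 to −1.40. In these fits 0 genes were called higher. With 75th percentile scaling, probes called higher rose from 3948 to 21768 (LPS minus untreated) and from 3147 to 21937 (LPS+USP7i minus untreated). Probes called lower moved from 5947 to 5669 and from 4086 to 4605. The lower share of all calls therefore moved from 60.1% to 20.7% and from 56.5% to 17.3% through the higher calls. The sign was the same in every fit for 35, 37 and 43 of the 43 genes. Signs that turned belonged to uncalled genes. For LPS minus untreated these were Ube2c 0.063 and Cenpe 0.25 with 75th percentile scaling, Cenpe 0.044 with normexp and 0.093 on deposited values, and Nuf2 0.26 and Tpx2 −0.25 with the mean over probes. For LPS+USP7i minus LPS they were Kif20a −0.0026 and Cenpf 0.0054 with 75th percentile scaling, Kif20a −0.063 with normexp, Kif20a −0.079 and Hmmr 0.033 on deposited values, and Ect2 0.12 with the mean over probes. With an array left out, LPS minus untreated ranged from −0.32 to 0.0022 for Cks2, −0.15 to 0.40 for Mad2l1, −0.50 to 0.28 for Ube2c, −0.34 to 0.31 for Cenpe, −0.55 to 0.19 for Nusap1 and −0.25 to 0.51 for Mki67, and LPS+USP7i minus LPS from −0.88 to 0.22 for Cdc25c, −0.49 to 0.50 for Kif20a, −0.044 to 0.0019 for Cenpf, −0.72 to 0.25 for Ndc80 and −0.31 to 0.26 for Hmmr. The cause was not tested. Signal near background limits Aurkb, Cenpf, Ttk and Kif15.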

Other observations

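Genes of G1 and S phase entry (31) had medians of −0.91, −0.25 and −1.02, so that their inhibitor step was smaller than the LPS step. In limma 15 fell and 3 rose with LPS, 4 fell and 1 rose with LPS+USP7i against LPS, and 15 fell and 1 rose against untreated. Of the 29 detected on all arrays 14, 4 and 14 fell, beside 23.9%, 7.44% and 16.3% of all names detected there. Ccnd1 (cyclin D1) fell by 1.69 with LPS (limma adjusted p = 0.00858) and differed by 0.25 with LPS+USP7i against LPS (0.532). Ccnd2 (cyclin D2) rose by 4.79 with LPS (limma adjusted p = 0.00184) and fell by 3.26 with LPS+USP7i against LPS (0.00987). Cdc6, which loads the replicative helicase, was at least 5.66-fold lower with LPS (limma adjusted p = 0.00518) and at least 2.13-fold higher with LPS+USP7i than with LPS (0.0265, with the block 0.0507). Chaf1a fell by 2.08 with LPS (limma adjusted p = 0.00388). Ccne1 fell by 1.93 with LPS+USP7i against LPS (limma adjusted p = 0.0198), and Rrm2 fell by 1.64 (0.0473) and Mcm2 fell by 1.63 (0.00697) between untreated and LPS+USP7i. Myc differed by −0.57 with LPS and by 1.84 with LPS+USP7i against LPS (limma adjusted p = 0.448 and 0.0643).

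Cell cycle brakes (25) had medians of −0.23, −0.24 and 0.15, with 5 lower and 6 higher with LPS, 5 lower and 4 higher with LPS+USP7i against LPS, and 5 lower and 7 higher against untreated in limma (with the block 2 lower in place of 5 for LPS+USP7i against LPS). Of the 23 detected on all arrays 5, 5 and 5 fell without the block, beside the same shares, and of all gene names 7.98%, 5.51% and 6.15% were called higher. Cdkn1a (p21) had 13.43 and 13.62 on the untreated arrays, 16.12 and 15.92 after LPS, and 15.10 and 14.81 after LPS+USP7i. It rose by 2.49 with LPS (limma adjusted p = 0.00415) and fell by 1.06 with LPS+USP7i against LPS (0.0347, with the block 0.0631), and the groups did not overlap. Cdkn1b (p27) fell by 0.92 with LPS (limma adjusted p = 0.00627) and fell by 0.73 with LPS+USP7i against LPS (0.0209). Cdkn2b (p15) was at 6.40 and 6.14, 6.85 and 6.35, and 10.98 and 11.23, and rose by 4.51 with LPS+USP7i against LPS (limma adjusted p = 0.0107). Mxd1 rose by 3.44 (limma adjusted p = 0.00401) and Gadd45b rose by 2.76 (0.00249) with LPS. With LPS+USP7i against LPS, Gadd45g rose by 3.24 (limma adjusted p = 0.011) and Ccng2 fell by 2.10 (0.0395, with the block 0.0761).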
